A study of Arabidopsis thaliana with 10 samples.

Results

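H3K4me3 loops were compared with H3K4me1 loops at the same genes, to learn whether a gene that carries both kinds of loop anchor meets the same partner genes through its start as through its body. The comparison used 4 of the 10 samples of the series (2 labelled replicates for each of these antibodies) and 2 of its 5 loop lists, which hold 27820 of 59276 loops. A gene was taken as an H3K4me3 gene when at least 0.5 of an H3K4me3 anchor lay between 0.5 kb upstream of its transcription start site (TSS) and 1 kb downstream (or its end, where that came first), and as an H3K4me1 gene when at least 0.5 of an H3K4me1 anchor lay inside it or such an anchor covered at least 0.5 of it. By this rule 9796 of 27444 nuclear protein-coding genes (35.7%) were H3K4me3 genes, 7496 (27.3%) were H3K4me1 genes and 3724 (13.6%) were both.

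The plants were Arabidopsis thaliana Col-0, a wild-type accession, sampled as shoots of seedlings at an age of 2 weeks that had been grown at 22 °C with 16 h of light and 8 h of darkness. All groups shared genotype, age and treatment, namely double cross-linking with formaldehyde and EGS (a cross-linker with a long spacer), so the antibody was the only labelled difference. In ChIA-PET, chromatin pulled down with an antibody is ligated, and paired-end tags (PETs) that join a pair of peaks are counted as a loop between 2 anchors. The chromatin had been sheared to 1 to 3 kb before the pull-down, which is longer than the distance between the 2 anchors of most genes described below, so a single fragment can carry sequence of both. The authors pooled the replicates of each antibody into 1 list, so each list is 1 sample here, no test between antibodies was possible, and all intervals are exact 95% Clopper-Pearson intervals that cover counting error only. Whole shoots mix many cell types, the lists hold no expression values, and the tissue could not be checked against marker genes.

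H3K4me3 lies on the nucleosomes just downstream of the TSS of transcribed genes and is laid down in Arabidopsis mainly by SDG2 (ATXR3) and ATX family enzymes. H3K4me1 lies in the bodies of transcribed genes, between the H3K4me3 peak and the end of the gene, and is laid down by ATX1, ATX2 and ATXR7. The same residue cannot hold both states at once, so along a gene the marks follow each other.

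The place where the H3K4me3 anchor ended and the H3K4me1 anchor began is called the seam. The stretch that both anchors covered is printed for 6 genes whose partners are described below, because it shows what kind of sequence the pair of anchors shared. It was read from the TAIR10.1 genome of NCBI RefSeq on the strand of the gene, 5′ to 3′, with coding exon of the transcript with the longest coding sequence in capitals and intron in lower case. The stretches are chr4:15146623-15146660 of DCAF1 (plus strand), chr3:3228176-3228313 of SEC8 (minus), chr5:14128680-14128806 of YAK1 (plus), chr2:11022544-11022656 of OVA4 (plus), chr2:11029948-11030059 of PAPS2 (minus) and chr5:7748338-7748441 of TGH (minus).
DCAF1: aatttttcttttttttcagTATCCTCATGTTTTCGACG
SEC8: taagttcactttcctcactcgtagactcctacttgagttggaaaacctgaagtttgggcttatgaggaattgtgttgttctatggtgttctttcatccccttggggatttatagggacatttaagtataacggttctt
YAK1: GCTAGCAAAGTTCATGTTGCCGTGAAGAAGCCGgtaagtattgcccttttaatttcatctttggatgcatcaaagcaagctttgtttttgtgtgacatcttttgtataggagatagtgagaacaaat
OVA4: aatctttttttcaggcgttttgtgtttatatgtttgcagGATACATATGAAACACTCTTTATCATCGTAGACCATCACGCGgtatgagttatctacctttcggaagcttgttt
PAPS2: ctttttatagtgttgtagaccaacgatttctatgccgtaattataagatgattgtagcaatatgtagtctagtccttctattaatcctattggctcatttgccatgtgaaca
TGH: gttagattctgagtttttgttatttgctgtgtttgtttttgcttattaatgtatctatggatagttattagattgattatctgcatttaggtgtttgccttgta

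The shared stretch of SEC8, which encodes a subunit of the exocyst, was 138 bp of intron that began 721 bp downstream of the TSS. That of DCAF1 was 38 bp, with 19 bases of intron and 19 of coding exon, and began 995 bp downstream. The stretches of YAK1, a protein kinase gene, and of OVA4 crossed splice junctions, with 33 of 127 and 42 of 113 bases in coding exon. The shared stretches of these genes thus differed in kind, and the same held over all genes. The middle of the seam fell in a coding exon in 1875 of 3737 gene and anchor pair combinations (50.2%, 48.6% to 51.8%), in an intron in 1725 (46.2%), in an exon outside the coding sequence in 113 (3.02%) and outside the transcript in 24. Its median distance from the TSS was 780 bp (quartiles 668 and 924 bp), that from the start codon was 523 bp, and at the median 1 whole exon came before it. The G+C content of the shared stretches of at least 30 bp had a median of 39.5% (2132 stretches), against 39.8% for whole H3K4me3 anchors, 39.4% for whole H3K4me1 anchors and 36.03% for the nuclear genome.

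The H3K4me3 list held 14465 loops with 120745 PETs and the H3K4me1 list 13355 loops with 150731 PETs, of which 3 and 1094 joined an anchor to itself and were left out. The remaining loops used 9613 H3K4me3 anchors with a median width of 955 bp, covering 10.3 Mb, and 6474 H3K4me1 anchors with a median width of 2766.5 bp, covering 21.4 Mb. Median tags per anchor were close, 4211 for H3K4me3 and 4055 for H3K4me1. Some anchors lay at several genes by the rule, 959 of the H3K4me3 and 973 of the H3K4me1 anchors, so gene pairs that share an anchor are not independent. By the rule 778 H3K4me3 anchors and 78 H3K4me1 anchors matched no gene.

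The anchors of the lists met inside genes. Of the H3K4me3 anchors 40.5% (3889 of 9613, 39.5% to 41.4%) overlapped an H3K4me1 anchor or lay within 500 bp of one, and of the H3K4me1 anchors 59.9% (3876 of 6474, 58.7% to 61.1%) did so with an H3K4me3 anchor. These made 4397 abutting pairs, and 3664 of them (83.3%) were anchors of the same gene. Read from the gene side there were 3732 same-gene pairs, of which 98.2% lay within 500 bp and 68.0% overlapped. The overlap was short: at the median the anchors shared 46 bp, and from the 5th to the 95th percentile they ran from an overlap of 230 bp to a gap of 175 bp. The H3K4me3 midpoint was upstream of the H3K4me1 midpoint in 3733 of 3737 combinations. The windows of the rule favour this order, so it describes the pairs and was not tested. The abutting pairs that were not of the same gene numbered 733, and in 424 of these the H3K4me3 anchor belonged to the next gene on the same strand, downstream of the gene with the H3K4me1 anchor.

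Genes with both anchors were long and had many exons. Their median length was 3548 bp with 9 exons, compared with 2032 bp and 3 exons for the 6072 genes with an H3K4me3 anchor only, 3045.5 bp and 7 exons for the 3772 genes with an H3K4me1 anchor only and 1596 bp and 3 exons for the 13876 genes with neither. The share of genes with both rose from 1.72% of genes under 2 kb (223 of 13000) through 13.5% at 2 to 3 kb, 28.2% at 3 to 4 kb and 41.4% at 4 to 6 kb to 53.9% at 6 to 9 kb (377 of 700), and was 45.3% (82 of 181) from 9 kb. A gene has to be long enough to hold an H3K4me1 anchor beside an H3K4me3 anchor, so length enters the rule. The position of the seam moved little with length. The TSS window of the rule limits in every class where an H3K4me3 anchor can lie, so this describes the pairs and was not tested. The median end of the H3K4me3 anchor lay between 677 and 871 bp from the TSS in the 6 length classes and the median start of the H3K4me1 anchor between 676 and 797 bp, whereas the median end of the H3K4me1 anchor was 2754 bp in genes under 2 kb, beyond the gene end, and moved from 2448 bp in genes of 2 to 3 kb to 10916 bp in genes from 9 kb.

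**Figure D1:**
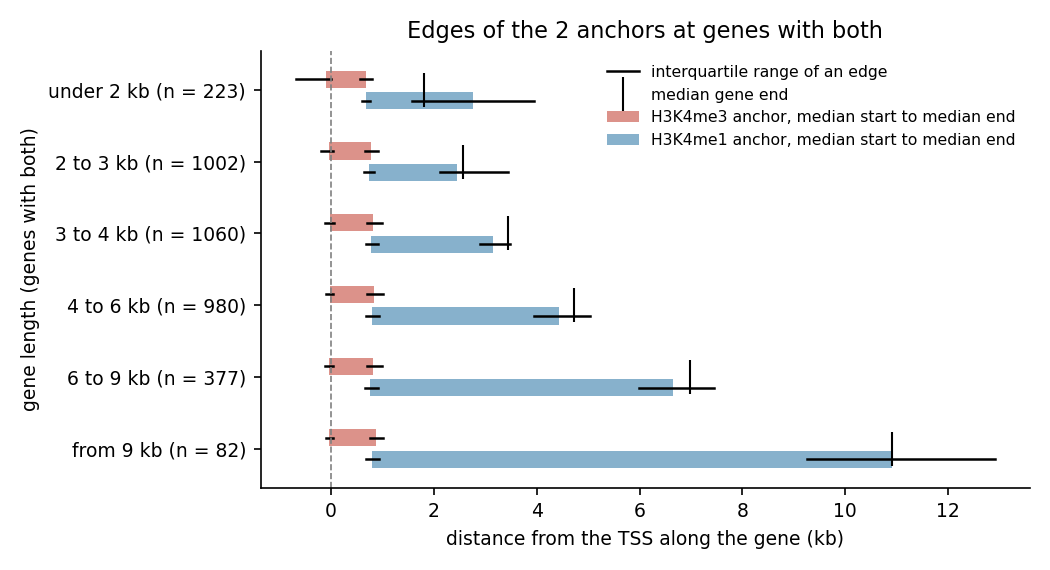
Horizontal bars run from the median start to the median end of the H3K4me3 anchor (red) and of the H3K4me1 anchor (blue), in kb from the TSS along the gene, for genes with both anchors in 6 length classes. Black lines give the interquartile range of each edge and ticks the median gene end. The median edges at the seam lie between 676 and 871 bp in every class, inside the TSS window set for H3K4me3 anchors. The far end of the H3K4me1 anchor is farther out in each class from 2 to 3 kb on.

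The 2 anchors of a gene differed in how many partners they had. A partner of a gene is a gene with an anchor of the same mark at the other end of a loop. Genes with both anchors had a median of 2 H3K4me3 partners in each length class. Their H3K4me1 partners had a median of 2 in the 3 classes under 4 kb, 4 at 4 to 6 kb, 12 at 6 to 9 kb and 31 from 9 kb. Across the 3724 genes, H3K4me3 and H3K4me1 partner numbers were not related (Spearman's rho 0.0188, Pearson's r 0.00317), whereas H3K4me1 partner number rose with gene length (rho 0.568, r 0.712) and with the tags of the H3K4me1 anchor (rho 0.758, r 0.890). H3K4me3 partner number went with the tags of the H3K4me3 anchor (rho 0.546, r 0.716) and not with length (rho −0.0329, r −0.0229). Genes in these correlations can share anchors and loops, tags and partner numbers come from the same libraries, and length, tags and partners of H3K4me1 rise together (length against tags, rho 0.767), so their parts cannot be told apart.

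**Figure D2:**
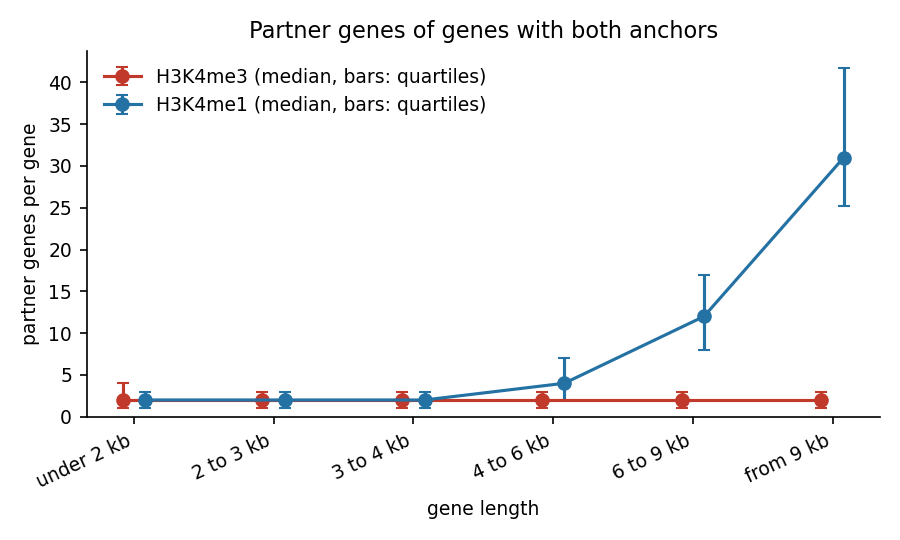
Points give the median number of partner genes per gene with both anchors in the H3K4me3 list (red) and the H3K4me1 list (blue) by gene length, and bars the quartiles. The H3K4me3 median is 2 throughout and the H3K4me1 median rises from 2 to 31.

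About every other gene with both anchors had a partner in common. Of the 3724 genes, 3567 had partner genes in both lists and 1803 (48.4%, 46.8% to 50.0%) shared at least 1 partner between them. Most of these shared 1 partner (1474 genes), 265 shared 2, 51 shared 3, 12 shared 4 and 1, EDA10, shared 5. By length, the share of genes with a common partner was lowest at 2 to 3 kb (44.4%, 41.3% to 47.6%) and highest at 6 to 9 kb (63.4%, 58.3% to 68.3%). Counted over pairs of genes with both anchors, 2336 pairs were joined in the H3K4me3 list, 5252 in the H3K4me1 list and 1105 in both, which is 47.3% (45.3% to 49.4%) of the first and 21.0% (19.9% to 22.2%) of the second. The second share depended on the limits of the lists, since the shares were 59.7% and 51.9% with an FDR below 0.001, and 61.4% and 44.9% with at least 10 PETs, where 863 genes had both anchors. The 1105 pairs came from 1032 H3K4me3 loops and 1073 H3K4me1 loops, 7.14% and 8.75% of the loops used.

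All pairs joined in both lists lay close together. Their TSSs were a median of 7.99 kb apart and at most 55.5 kb, the distance between EMB2771, which encodes an E3 ubiquitin ligase, and NFXL2, with 6 H3K4me3 PETs and 12 H3K4me1 PETs. Pairs joined by an H3K4me3 loop were therefore set beside all other pairs of genes with both anchors at the same distance. Only the distance between TSSs was matched, and neither the distance between the H3K4me1 anchors nor the orientation of the genes was. Pairs that share an anchor in a list cannot be joined through it (3 of 176 that shared an H3K4me1 anchor were joined through another anchor, and 0 of 217 that shared an H3K4me3 anchor) and were left out of this comparison, 269 of 894 pairs under 5 kb, 107 of 1339 at 5 to 10 kb, 12 of 2129 at 10 to 20 kb and none of 5135 at 20 to 50 kb. This restriction was chosen after the data had been seen.

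In each distance class under 50 kb an H3K4me1 loop was found more often at pairs with an H3K4me3 loop. Under 5 kb the share was 64.7% (222 of 343, 59.4% to 69.8%) against 53.2% (150 of 282, 47.2% to 59.1%) at pairs without one, intervals that just miss each other. At 5 to 10 kb it was 66.9% (63.5% to 70.1%) against 51.5% (46.5% to 56.4%). The ratio of the shares grew with distance. At 10 to 20 kb it was 53.8% (296 of 550, 49.6% to 58.0%) against 30.0% (470 of 1567, 27.7% to 32.3%), and at 20 to 50 kb 24.6% (32 of 130, 17.5% to 32.9%) against 8.05% (403 of 5005, 7.31% to 8.84%). Without the restriction the shares under 5 kb were 57.8% and 55.5%, whose intervals overlap, and those of the other classes kept their order.

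**Figure D3:**
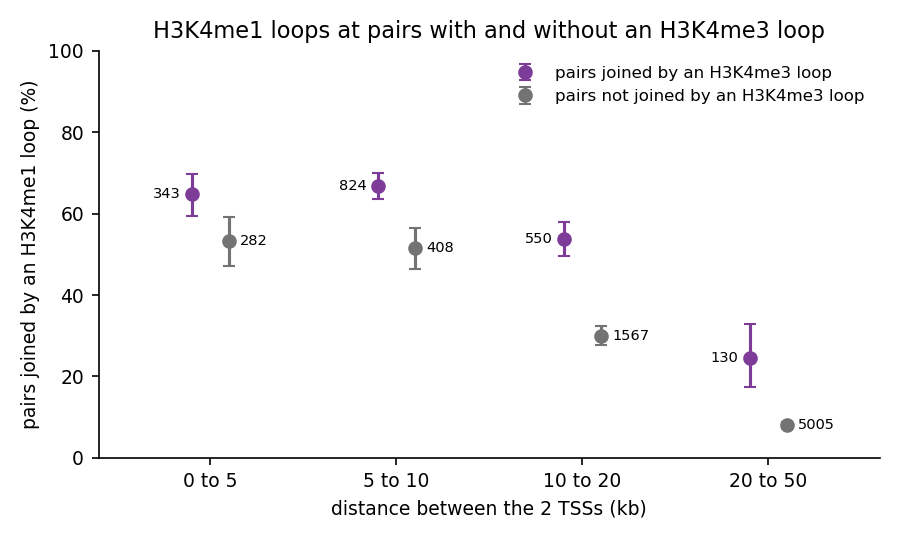
The share of gene pairs joined by an H3K4me1 loop, in percent, is plotted by the distance between the TSSs for pairs joined by an H3K4me3 loop (purple) and for pairs not joined by one (grey), over genes with both anchors and separate anchors in each list. Bars are exact 95% intervals and numbers beside the points are pairs. The purple point is higher in each class, by the most at 10 to 20 kb, 53.8% against 30.0%.

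Distance and tags within a class were followed further, since both could differ between the groups. In steps of 5 kb the shares were 59.7% against 35.4% at 10 to 15 kb, 34.1% against 25.5% at 15 to 20 kb (43 of 126 and 218 of 855), 29.5% against 17.0% at 20 to 25 kb and 25.6% against 10.9% at 25 to 30 kb. From 15 kb on the intervals of each step overlapped, and the steps beyond 30 kb held at most 14 H3K4me3-joined pairs each. Within a class the pairs with an H3K4me3 loop were also somewhat closer together, with a median of 11.8 kb against 12.8 kb at 10 to 15 kb, and 61 and 39 of the 130 such pairs at 20 to 50 kb lay at 20 to 25 and 25 to 30 kb, against 847 and 819 of the 5005 others. How much of the difference at 20 to 50 kb comes with distance was not tested further. Pairs were also divided at the median of the smaller H3K4me1 tag count of their anchors. At 10 to 20 kb the shares were 40.4% against 18.1% in the lower part and 67.4% against 41.9% in the upper part, and at 20 to 50 kb 13.2% against 1.84% and 40.7% against 14.2%. In these parts the intervals did not overlap, so the difference was present at low and at high tag counts at these distances. At 5 to 10 kb the intervals of both parts were separate as well. Under 5 kb they overlapped in both parts, with 42.8% against 38.7% in the lower and 83.7% against 70.9% in the upper.

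The number of genes in between followed the same course. Of adjacent pairs with separate anchors 51.8% (414 of 799, 48.3% to 55.3%) were joined in both lists, and with 1 protein-coding gene between them 39.4% (364 of 923, 36.3% to 42.7%). The share fell to 22.5% with 2 genes between, 11.2% with 3, 4.78% with 4 and 0.578% with 5 or more among pairs under 50 kb. Counted with the pairs that share an anchor, it was 36.2% (417 of 1152) for adjacent pairs and 38.2% (364 of 952) with 1 gene between.

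The orientation of neighbouring genes was examined because it sets how far apart their starts and their bodies lie. Convergent neighbours, which point at each other, had TSSs a median of 6.68 kb apart and H3K4me1 midpoints 3.12 kb apart, and 131 of 371 pairs shared an H3K4me1 anchor. Among the 186 convergent pairs with separate anchors, 83.3% (77.2% to 88.4%) were joined in the H3K4me3 list and 81.7% (75.4% to 87.0%) in the H3K4me1 list. Divergent neighbours, which start back to back, had TSSs a median of 0.32 kb apart, below the smallest span of any H3K4me3 loop (2.12 kb), and 158 of 305 pairs shared an H3K4me3 anchor. Of the 147 divergent pairs with separate anchors 36.7% (28.9% to 45.1%) were joined in the H3K4me3 list and 64.6% (56.3% to 72.3%) in the H3K4me1 list. Tandem neighbours, of which 466 of 476 had separate anchors, were joined in 65.2% (60.7% to 69.6%) and 74.7% (70.5% to 78.6%) of cases. By these shares the lists differed most at divergent pairs and least at convergent pairs.

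Far from the gene the lists had no partner in common. Of all H3K4me3 gene links of genes with both anchors, counted from each such gene, 77.6% reached under 100 kb, and 19.9% (2016 of 10155) spanned over 1 Mb or joined chromosomes. Of the H3K4me1 links 46.7% reached under 100 kb, and 49.2% (9442 of 19198) were of the long kind. The partners reached by long links also differed in length, with a median of 2374 bp in the H3K4me3 list and 5975.5 bp in the H3K4me1 list, counted per link. Counted that way a gene with many links weighs more. With each partner gene counted once the medians were 2397 and 4429 bp. For links under 100 kb they were 2570 and 3401 bp, so partner length differed between the lists there too. In the H3K4me3 list 29.0% of the long links led to another gene with both anchors, and in the H3K4me1 list 52.9%. Of the links under 100 kb 50.9% and 56.9% did so. Of all H3K4me3 genes 38.0% had both anchors and of all H3K4me1 genes 49.7%, so the lists differ in this share to begin with.

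**Figure D4:**
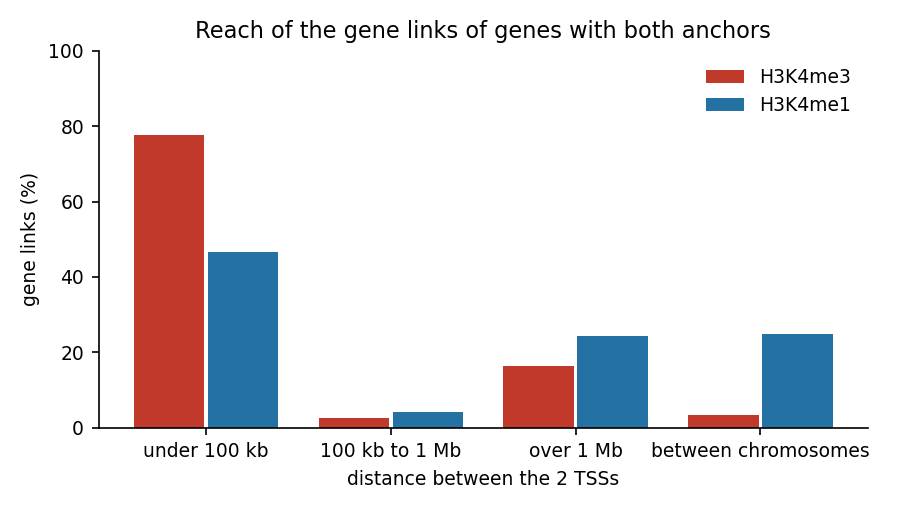
Bars give the share of gene links of genes with both anchors, in percent, that fall in each class of distance between the TSSs, for the H3K4me3 list (red) and the H3K4me1 list (blue). Links under 100 kb make up 77.6% of the H3K4me3 and 46.7% of the H3K4me1 links.

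Among the 3724 genes, 336 had partners over 1 Mb away or on another chromosome in both lists. None of them had such a partner in common, although 175 of the 336 shared a partner under 100 kb. Their long-range partners were 683 of the 27444 genes in the H3K4me3 list and 1037 in the H3K4me1 list. The sets had 35 genes in common, 5.12% of the first and 3.38% of the second. Sets this small among all genes would have few genes in common in any case, so this overlap is not read as low. Over pairs of genes with both anchors, 0 of 330 H3K4me3 pairs at 100 kb or more or between chromosomes was joined in the H3K4me1 list (upper limit 1.11%) and 0 of 2704 H3K4me1 pairs in the H3K4me3 list (upper limit 0.136%). So many pairs are possible at these distances that the share among all other pairs, 0.0391%, would give only 0.129 joined pairs among the 330, so a preference or its lack could not be resolved at this depth. Matching anchors by position gave a like picture. Of 4606 H3K4me3 loops over 1 Mb or between chromosomes none had an H3K4me1 loop with both ends within 5 kb, 6 had one within 10 kb, 23 within 20 kb and 136 (2.95%) within 50 kb. Of 9401 H3K4me3 loops under 100 kb 13.8% had one within 0.5 kb, 34.8% within 5 kb and 92.0% within 50 kb. H3K4me3 loops within chromosomes had a median span of 11.3 kb, so the wider windows can take in loops of neighbouring genes. No share to expect was worked out for either kind of loop.

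The strength of a contact in 1 list did not follow that in the other. Over the 1105 pairs joined in both lists the PET counts had a Spearman's rho of −0.0126 and a Pearson's r of −0.0128. More PETs were found in the H3K4me1 list for 591 pairs, in the H3K4me3 list for 390, and 124 were equal. PET counts were low, with medians of 9 and 8, and pairs with fewer than 6 PETs were never listed, which narrows the range over which a relation could show. Pairs of genes with both anchors under 60 kb apart that were joined in 1 list only had medians of 8 PETs in each list.

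The pairs with the highest smaller PET count in the lists were neighbours or near neighbours. AT5G35970, which encodes a P-loop hydrolase, and YAK1 lie back to back with TSSs 4.60 kb apart and had 23 H3K4me3 PETs and 26 H3K4me1 PETs. OVA4, a nucleotidylyl transferase gene, and PAPS2, which encodes a poly(A) polymerase, converge with 1 gene between them and had 22 and 27 PETs. TGH, which acts in microRNA processing, was joined across 2 genes to AT5G23110, a zinc finger protein gene 17.6 kb long, by 20 H3K4me3 PETs and 63 H3K4me1 PETs. In these pairs neither list was uniformly the stronger. AT4G31180, a class II aminoacyl-tRNA synthetase gene, and AT4G31210, a DNA topoisomerase gene, had 30 H3K4me3 PETs and 20 H3K4me1 PETs. The other pairs of the 10 were AT1G15280 with AT1G15290, PLC2 with AT3G08530, which encodes a clathrin heavy chain, AT1G51580 with ZML2, EER4 with AT1G17450, AT1G21610 with AT1G21630, and VHP2;2 with AT1G16800, with 17 to 20 H3K4me3 PETs and 18 to 36 H3K4me1 PETs. EER4 encodes a TFIID subunit and AT1G17450 a B-block binding subunit of TFIIIC. After EMB2771 with NFXL2 the pairs farthest apart were AT3G06920 with SGT (40.6 kb), AT1G58220 with SAB (38.8 kb), EDA10 with AT1G02080 (35.4 kb) and CPL1 with NRPB2 (31.4 kb), the last a phosphatase gene of the RNA polymerase II tail and the gene of a core subunit of that enzyme, with 6 and 15 PETs.

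Strong contacts present in 1 list only were found as well. LDL3, an H3K4 demethylase gene of 8.29 kb, and SPK1, of 13.4 kb, converge with TSSs 23.6 kb apart. They had 135 H3K4me1 PETs and no H3K4me3 loop. SYN4, a cohesin subunit gene of 6.5 kb, and AT5G16280, of 8.56 kb, converge with TSSs 15.5 kb apart and had 79. In both pairs the gene bodies lie much closer together than the TSSs, so these distances are not the spans of the H3K4me1 contacts. EMB3142 and EMF2, a Polycomb group gene, had 74. In the other direction AT3G52220 had 39 H3K4me3 PETs with the anchor that AT3G52240 and AT3G52250 share, 4.89 kb away, and no H3K4me1 loop with either. The strongest long contacts of genes with both anchors had 9 H3K4me3 PETs, as between CLPR1 and SIGA 5593 kb apart, and 45 H3K4me1 PETs, between AT3G48195 on chromosome 3, whose H3K4me1 anchor also covers its neighbour ATM, and EMB3142 on chromosome 5. The 5 strongest pairs over 1 Mb and the 5 strongest between chromosomes in either list had no loop in the other. No pair at these distances had one, as given above, so this was fixed in advance and adds no further result.

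The 10 genes with the most partners in common lay in chains of 5 to 8 genes, where a chain is a set of genes linked by pairs joined in both lists. A gene with 4 or 5 common partners is in a chain of at least 5 genes by this definition. Each of the 10 had common partners on both sides. EDA10, a gene of a SEC7-like guanine nucleotide exchange factor, had 16 H3K4me3 partners and 23 H3K4me1 partners and shared 5, namely ARK2 (a kinesin gene), AT1G01920 (a SET domain protein gene), AT1G01930, AT1G01940 and AT1G02080 (a transcription regulator gene). The last lies 35.4 kb away and was joined by 9 and 16 PETs, and ARK2, 12.6 kb away, by 13 and 43. AT1G01930 and AT1G01940 start back to back 9 bp apart at 1 H3K4me3 anchor, so they count as 1 contact there. The other genes of the rule shared 4 partners each. They were GCN2, a kinase gene of the starvation response (21 and 28 partners), DCAF1, a CUL4 ligase receptor gene (10 and 21), AT4G33500 (9 and 10), SEC8 (8 and 30), AT1G51610 (6 and 6), AT5G08450 (6 and 9), AT1G27470 (5 and 6), the ubiquitin ligase gene UPL1 (5 and 31) and AT5G55660 (5 and 8), each given as H3K4me3 and H3K4me1 partners. The farthest common partner of these 9 genes lay 10.6 to 20.8 kb away.

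Pairs joined in both lists linked 1803 genes into 729 chains. Most chains were single pairs (529), 200 had 3 genes or more, and the longest 2 had 8. The first ran over 70.9 kb of chromosome 1, chr1:315983-386913, with AT1G01920, AT1G01940, AT1G01930, ARK2, EDA10, AT1G02020, AT1G02060 and AT1G02080, and held 8 of the 20 protein-coding genes there, joined by 7 pairs. The second ran over 31.4 kb of chromosome 4, chr4:16102595-16133969, from the histone deacetylase gene HDA14 to the potassium transporter gene KUP5 and held 8 of 9 genes there, among them the copper transporter gene PAA1, joined by 10 pairs. Within the EDA10 chain the lists shared the 7 pairs and differed on others, since 5 pairs, such as AT1G02020 with AT1G02060, were joined in the H3K4me3 list only, and 1 pair, ARK2 with AT1G02080, in the H3K4me1 list only.

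**Figure D5:**
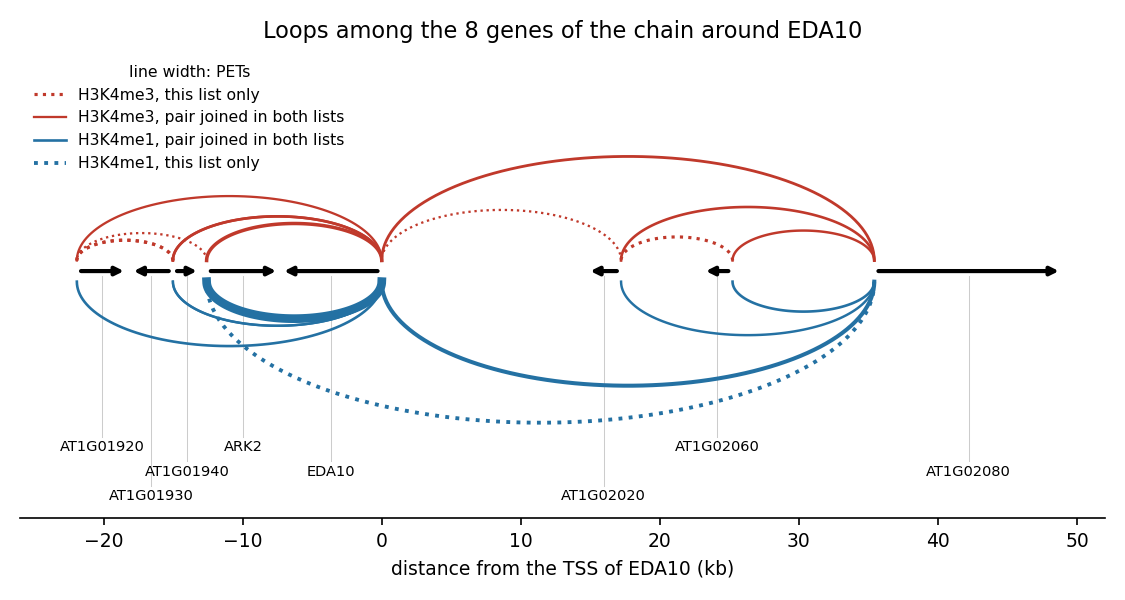
Arcs join the TSSs of the 8 genes of the EDA10 chain, plotted in kb from the TSS of EDA10, for H3K4me3 loops above the line and H3K4me1 loops below it, with line width rising with PETs. Solid arcs are the 7 pairs joined in both lists and dotted arcs those of 1 list, and arrows show the genes. AT1G01930 and AT1G01940 start 9 bp apart, so their arcs to EDA10 coincide.

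Genes with many partners in each list and none in common were the counterpart. ILP1 and FUG1, a translation initiation factor gene, start back to back and share 1 H3K4me3 anchor with 15704 tags and 26 partners, 3 of them under 100 kb. Through their own H3K4me1 anchors they had 11 and 8 partners, 3 and 4 of them under 100 kb, and none in common with the 26. AT1G72390 had 9 H3K4me3 and 43 H3K4me1 partners. PIE1, the ATPase gene of the SWR1 complex that deposits H2A.Z, had 8 and 15, and AT3G53580 had 8 and 8. Of the H3K4me3 partners, 23 of the 26 of ILP1 and FUG1, 5 of 9 for AT1G72390 and 7 of 8 for PIE1 lay 100 kb or more away or on another chromosome, where no pair was joined in both lists. AT3G53580 had only 2 of 8 that far away.

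Genes of the H3K4 methylation system were set beside all genes of 6 to 9 kb, the class of the list's median length. Of 20 listed writers, erasers and partners 14 were H3K4me3 genes, 15 were H3K4me1 genes and 10 (50.0%, against 13.6% of all genes) had both. Their median length was 6.46 kb. The first 2 counts are 70% and 75%, against 54.4% and 91.0% of all genes of 6 to 9 kb, of which 53.9% had both. The listed genes ran from 2.15 kb (WDR5a) to 11.2 kb (SDG2), so that class matches only part of the list. Of the listed genes inside it, ATX1 to ATX5, ATXR7 and LDL3 had both, and JMJ16 and JMJ17 did not. Outside it only SDG2, FLD and JMJ14 had both. The methyltransferase genes ATX1, ATX2, ATX3, ATX4, ATX5, SDG2 and ATXR7 and the demethylase genes LDL3, FLD and JMJ14 were the 10, and 6 of them shared a partner. ATX1 had 2 H3K4me3 and 18 H3K4me1 partners and shared AT2G31610 at 12.2 kb. ATX2 had 1 and 19 and shared AT1G05840 at 12.2 kb, and LDL3 shared its neighbour FCA, a flowering time gene, at 3.01 kb. SDG2 had 27 H3K4me1 partners and no H3K4me3 partner gene. JMJ15, JMJ16, JMJ17 and the methyltransferase gene ASHH2 had an H3K4me1 anchor only, and JMJ18 had neither. Of 11 chromatin remodeller genes 8 had both anchors and 3, CHR17, CHR12 and CHR23, shared a partner. Of all genes of 6 to 9 kb, the class of the list's median length (8.74 kb), 53.9% had both and 63.4% of these shared a partner. BRM, a SWI/SNF ATPase gene, had 3 and 28 partners and INO80 6 and 18, with none in common.

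Photosynthesis genes, which are short, and giant genes were each set beside all genes of like length. Of 24 nuclear photosynthesis genes, with a median length of 1.50 kb, 15 were H3K4me3 genes and 0 were H3K4me1 genes. With any overlap of 1 bp 24 and 0 were, and the anchors of the 9 added genes were 1951 to 4258 bp wide with 24.3% to 48.1% of their width in the TSS window. That of RCA, the Rubisco activase gene, ran from 19 bp upstream of the TSS to 4171 bp downstream. Genes under 2 kb as a whole were H3K4me3 genes in 24.2% and H3K4me1 genes in 8.30% of cases. All 12 giant genes were H3K4me1 genes, with a median of 39.5 H3K4me1 partners, and 6 were H3K4me3 genes. Of all 181 genes from 9 kb 97.8% were H3K4me1 genes and 45.3% had both anchors, and those with both had a median of 31 H3K4me1 partners, so these shares are near those of other genes that long. ATM, the DNA damage kinase gene, had 128 H3K4me1 partners, MDN1 105 and TOR, the growth regulator kinase gene, 83, and these genes had no H3K4me3 anchor. Of the 6 giant genes with both, 3 shared a partner: UPL1 shared 4, KAK 2 and MED12 1. Of all genes from 9 kb with both anchors 56.1% shared a partner. Of 344 genes with ribosomal protein in the product text 223 were H3K4me3 genes, 30 were H3K4me1 genes and 23 had both, 11 of which shared a partner. These are 64.8%, 8.72% and 6.69%, against 24.2%, 8.30% and 1.72% of all genes under 2 kb, the class of the list's median length (1.56 kb), and of all genes with both anchors 48.4% shared a partner.

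Clock and photoreceptor genes were divided between the classes. Of 21 clock genes 12 were H3K4me3 genes, 10 were H3K4me1 genes and 5 had both. These are 57.1%, 47.6% and 23.8%, against 35.7%, 27.3% and 13.6% of all genes and 47.6%, 49.1% and 28.2% of genes of 3 to 4 kb, the class of the list's median length (3.33 kb). An H3K4me3 anchor only was found at CCA1, LHY, PRR5, LUX, ZTL, LKP2 and RVE6, and an H3K4me1 anchor only at TOC1, PRR3, GI, ELF3 and FKF1. PRR7, RVE4, RVE8, LNK1 and LNK2 had both, and PRR9, ELF4, RVE1 and TIC had neither. With any overlap of 1 bp RVE1 and TIC were H3K4me3 genes too. The evening gene LUX was in the class of the morning genes CCA1 and LHY, and its evening complex partner ELF3 was not. PRR5, ZTL, LKP2 and RVE6 were in that class too, and a grouping by time of day was not tested. PRR7 shared AT5G02830 at 6.51 kb and RVE4, an activator of the clock, shared RHL2 at 6.09 kb. These were 2 of the 5 clock genes with both anchors, and of all such genes of 3 to 4 kb 44.8% shared a partner. Of 10 photoreceptor genes 5 had both, namely PHYA, PHYB, PHYE, CRY2 and PHOT2. That is 50.0%, against 13.6% of all genes and 41.4% of genes of 4 to 6 kb, the class of the list's median length (4.65 kb). The phototropin gene PHOT2, with 9 H3K4me1 partners, shared AT5G58100 at 16.5 kb, and PHYA, PHYB, PHYE and CRY2 shared none. Of all genes of 4 to 6 kb with both anchors 50.1% shared a partner. The sources used here do not give the hour of harvest.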

How the data were processed

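The authors mapped ChIA-PET reads to TAIR10 with ChIA-PET Tool V3, called loops between ChIP-seq peaks, pooled the replicates of each antibody and kept loops with a deposited FDR (an adjusted p-value) below 0.05 and at least 6 PETs within or 8 between chromosomes. The deposited PET and tag counts are whole numbers with no normalization, and the deposited p-values were used only to filter loops. The list names carry 4 library numbers each. Their relation to the 2 labelled replicates and the aligner settings are not given in the sources used here. Coordinates were read as 1-based TAIR10, and genes came from TAIR10.1 of RefSeq, whose nuclear chromosomes hold all anchors used.

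Loops of an anchor with itself were left out. Anchors were assigned to genes, abutting anchors paired (gap up to 500 bp), and a pair of genes given the highest PET count of its loops. The functions were tested on simulated loops with known pairs. Distances are between TSSs. No per-sample column was left unused. Python 3.11.15, NumPy 2.4.6, SciPy 1.17.1, NetworkX 3.6.1 and matplotlib 3.10.9 were used.

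Named are the 10 genes with most common partners, the 10 pairs with the highest smaller PET count, the 5 strongest long and interchromosomal pairs, the 5 genes of highest smaller partner number with none in common, members of the gene lists and genes at an extreme. The strongest pairs of 1 list only, the 5 pairs farthest apart and the printed sequences were picked after their values had been seen. The comparison, its gene lists and its rule were chosen with earlier results of these data known. Alternatives tried were other rules for assigning anchors, stricter PET and FDR limits, other gaps, matching by anchors and distance limits.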

Additional observations from a re-analysis of the deposited data

How the results depend on the processing

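No paired analysis was possible because the lists pool the replicates of an antibody and no column holds values of 1 replicate. Leaving out a replicate was not possible either. A pair missing from a list had fewer PETs than the minimum of 6 or 8, or an FDR above the limit, and total mapped pairs were not read from the lists. With at least 10 PETs in both lists the genes with both anchors fell from 3724 to 863, the abutting pairs from 4397 to 1014 and the share of genes with a common partner from 48.4% to 41.1%, while the share of H3K4me3 pairs also joined in the H3K4me1 list was 61.4% (main 47.3%) and that of H3K4me1 pairs also joined in the H3K4me3 list 44.9% (main 21.0%). With an FDR below 0.001 these 3 shares were 55.5%, 59.7% and 51.9%. With the anchor midpoint rule the first was 44.3% and the third 22.3%, with any overlap of 1 bp the first was 50.4% and the second 41.2%, and within chromosomes the third was 27.8%. Matched by anchors instead of genes, the pair shares were 53.3% and 26.3%, and over pairs with separate anchors, an alternative chosen after the data had been seen, the H3K4me3 pair share was 50.3%. Restricted to pairs at least 20 kb apart or on different chromosomes, the 3 shares were 1.69%, 6.93% and 1.03%. Abutting pairs numbered 2670 when anchors had to overlap or touch. The other alternatives stayed within 1.5 times the main count or inside the main 95% interval.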

Other observations

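Short sequence words in the promoters, from 250 bp before to 50 bp after the TSS of the TAIR10.1 genome, differed between the gene classes. The word TGGGCC, searched on both strands, was present in 23.4% of the 3724 genes with both anchors (22.0% to 24.8%) and in 23.8% of the 6072 genes with an H3K4me3 anchor only (22.7% to 24.9%). It was present in 14.5% of the 3772 genes with an H3K4me1 anchor only (13.4% to 15.7%), 9.97% of the 13876 genes with neither and 15.5% of all genes. TGGGCT, which differs from it in the last letter, followed the same order with 19.3%, 20.9%, 13.02% and 10.2%. For TGGGCC the H3K4me3 classes thus stood together, whether or not the gene had an H3K4me1 anchor. AAACCCTA was found in 6.74%, 6.74%, 6.42% and 5.87% of the classes in the same order, and the intervals of all classes overlapped. For CACGTG the shares were 9.67%, 9.42%, 7.56% and 6.45%. TATAAA was found in 47.6%, 49.5%, 48.4% and 55.7%, highest in genes with neither anchor. A match is a description of the letters in the window. Classes differed in gene length and H3K4me3 anchors were assigned by the TSS, and the part of either in these shares was not tested.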
